A study of Mus musculus with 2 samples.

Results

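Keratins and vimentin are intermediate filament proteins, and the 8 genes described here are Krt7, Krt8, Krt18, Krt19, Krt20, Krt23, Krt80 and Vim. They were taken by gene name from the spots of the array that are not controls, and every probe of each gene was read. This gave 8 of 30153 genes, 9 of 39390 probes and 9 of 43020 spots. Krt8 had 2 probes and each other gene had 1.

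The study compared RNA of mature hepatocytes (MHs) with RNA of Sox9+EpCAM- cells, which its authors call biphenotypic hepatocytes, to find markers of the latter. Both came from Sox9-EGFP mice, a reporter strain in which cells that express Sox9 carry green fluorescent protein, and the labels call both samples male. MHs were purified from healthy livers by low-speed and Percoll centrifugation, with no sort for a marker. Sox9+EpCAM- cells were sorted as GFP+EpCAM- cells from livers of mice fed a diet with DDC (3,5-diethoxycarbonyl-1,4-dihydro-collidine), a compound that injures bile ducts. Treatment and way of isolation therefore changed together and cannot be told apart here. The age and number of mice and their strain background were not given in the sources used here. Cells sorted for quantitative PCR in the same study came from mice on the diet for 2 weeks, and it is not stated whether this also holds for the array.

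Keratins pair a type I with a type II chain to form filaments. Krt8 (type II) and Krt18 (type I) are the pair of hepatocytes, whereas Krt7 and Krt19 are added in cholangiocytes, the cells that line bile ducts. DDC feeding is known for enlarging the keratin network of mouse hepatocytes and for Mallory-Denk bodies, aggregates of Krt8 and Krt18 with stress proteins. Vim encodes vimentin, which is typical of mesenchymal cells and also of cells in culture or under injury.

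Each group is a single array without replicates, which limits the precision, so the values below carry neither SD nor test. Each spot gives a background-subtracted intensity of Cy3, which was divided by the 75th percentile of its array (741 on the MH array, 1110 on the Sox9+EpCAM- array). A difference is log2 of the scaled Sox9+EpCAM- value minus log2 of the scaled MH value, so it is smaller than the ratio of the raw intensities would give. A 4-fold difference was taken as the rule of size. Of 21877 genes with a difference, 5.98% were higher by 4-fold or more in Sox9+EpCAM- cells and 5.96% were lower by as much, and the median of all these genes was -0.12. Probes printed at least 8 times gave a median SD between spots of 0.08 on each array, hence 0.12 for a difference. This spread is that of spots on an array and leaves out the spread between mice.

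The sex label was checked before the results. Xist, which is expressed from the inactive X chromosome of females, read 1940 in MHs and 16.1 in Sox9+EpCAM- cells, where it was not well above background. The Y-linked genes Ddx3y, Kdm5d, Eif2s3y and Uty read 642, 490, 140 and 201 in Sox9+EpCAM- cells, and none of them rose well above background in MHs. These values go against the label male for the MH sample. By these genes, sex differed between the arrays along with diet and isolation, and its part in the keratin values was not tested.

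The probes behind the main values are shown so that the measured stretch of each keratin can be seen. They are DNA of 60 bases written 5′ to 3′ as the array design gives them, all in lower case.
Krt8 probe: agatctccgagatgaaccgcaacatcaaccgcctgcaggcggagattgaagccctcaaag
Krt18 probe: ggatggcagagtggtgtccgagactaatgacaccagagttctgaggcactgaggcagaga
Krt7 probe: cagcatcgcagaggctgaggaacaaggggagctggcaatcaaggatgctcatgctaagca
Krt19 probe: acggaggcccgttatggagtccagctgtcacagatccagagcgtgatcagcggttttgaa
On mm9, the build of the array design, the Krt8 probe lies at chr15:101828827-101828886 on the minus strand and the Krt18 probe at chr15:101862341-101862400 on the plus strand. The Krt7 probe lies at chr15:101253718-101253777 and the Krt19 probe at chr11:100002392-100002451. Krt80 shares chromosome 15 with Krt7 and Krt8, and Krt20 and Krt23 share chromosome 11 with Krt19. Krt18 is thus the only type I keratin of the 7 that lies among the type II genes, and no protein-coding gene separates it from Krt8. The longest stretch that any of the 9 probes shared with a probe of another gene was 15 bases.

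Krt8 was higher in Sox9+EpCAM- cells on both of its probes. The brightest probe, which stands for the gene, read 12400 in MHs and 83100 in Sox9+EpCAM- cells, a 4.47-fold difference after scaling (log2 2.16). Of all genes with a difference, 94.8% had a lower one. In this RNA from many cells, a change in the share of cells that express a gene and a change in RNA per cell cannot be told apart. The second Krt8 probe, at chr15:101827138-101827197, read 90.1 in MHs and 5780 in Sox9+EpCAM- cells, a 42.8-fold difference (log2 5.42). It lies 1689 bases further toward the 3′ side of the gene and holds the hexamer AATAAA, the usual signal for polyadenylation, from base 33. The array design assigns it to another sequence record than the brightest probe.

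The direction was thus the same on both Krt8 probes and the size was not. Their differences lay 3.26 apart on the log2 scale. Among 3274 genes with 2 probes measured on both arrays, the median gap was 0.66, and 94 of them (2.87%) had a gap at least as wide as that of Krt8. In MHs the second probe was 3.24 times the lowest signal well above background, and its fold rests on that dim value. What set the probes apart was not tested.

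Krt18, the partner chain, was also higher in Sox9+EpCAM- cells, by less. Its probe read 34700 in MHs and 115000 in Sox9+EpCAM- cells, a 2.21-fold difference (log2 1.15) that was below the 4-fold rule. Of all genes with a difference, 86.8% had a lower one, and 15.2% of genes were at least 2-fold higher. The difference of Krt8 exceeded that of Krt18 by 1.02 on the log2 scale. No spot on either array was saturated, these bright ones included.

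Vim had the largest difference of the 8 genes on the brightest probe of each. Its probe, at chr2:13504232-13504291, read 186 in MHs and 1760 in Sox9+EpCAM- cells, a 6.32-fold difference (log2 2.66). Of all genes with a difference, 96.8% had a lower one. The MH value was 6.69 times the lowest signal well above background, so Vim was measured on both arrays.

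The ductal keratins differed by less than 2-fold. Krt19 read 73.1 in MHs and 146 in Sox9+EpCAM- cells, a 1.33-fold difference (log2 0.42). Both readings were low, 2.63 and 7.93 times the lowest signal well above background of their array. Krt7 read 509 in MHs and 648 in Sox9+EpCAM- cells, a difference of -0.23, and 44.8% of all genes had a lower one. Scaling to Gapdh turned the sign of Krt7 (0.03), so no direction is given for it.

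Krt20, Krt23 and Krt80 read lower in Sox9+EpCAM- cells. Krt23, a type I keratin known to be induced in diseased liver, read 2800 in MHs and 2540 in Sox9+EpCAM- cells, a difference of -0.72 (1.65-fold). Krt20, known from intestinal and bladder epithelium, read 139 and 112, a difference of -0.89 (1.86-fold). Krt80, a type II keratin of many epithelia, read 316 and 214, a difference of -1.15 (2.21-fold). None of them reached 4-fold, and only Krt80 reached 2-fold, which 17.9% of all genes did in this direction. Their signs were the same under all 6 ways of scaling, but the side of 2-fold was not. Of these 6, normexp changes the background correction and keeps the reported scaling. Krt80 was under 2-fold with normexp (-0.98) and Gapdh (-0.88), and Krt20 was past it with quantile normalization (-1.06) and the deposited table (-1.08).

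**Figure D1:**
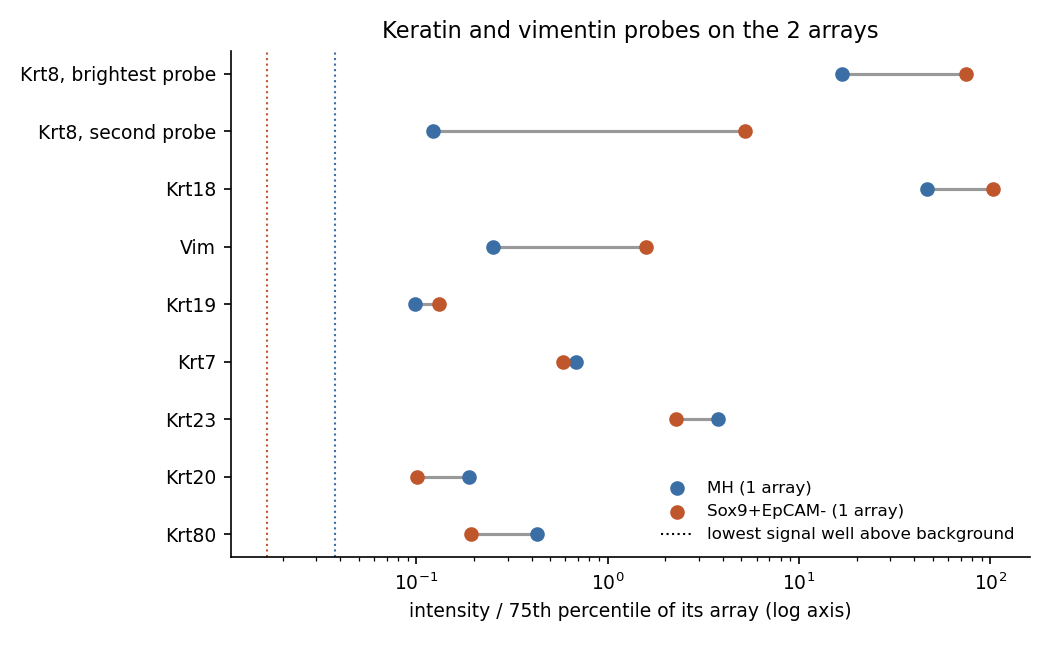
Scaled intensity (intensity divided by the 75th percentile of its array, log axis) of each of the 9 probes on the MH array (blue) and the Sox9+EpCAM- array (orange), 1 array each; dotted lines mark the lowest signal well above background of each array. The longest line is that of the second Krt8 probe (42.8-fold), followed by Vim (6.32-fold) and the brightest Krt8 probe (4.47-fold), and all points lie to the right of the dotted line of their own array.

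On each array all 8 genes were measured well above background. Of the 8, Krt8 and Vim passed the 4-fold rule upward in Sox9+EpCAM- cells, 0 passed it downward, 4 had a difference above 0 and 4 had one below, or 5 and 3 with scaling to Gapdh, which turned Krt7. Over all genes the share higher by 4-fold or more was 5.98%, and with 8 genes no share is read from the count. The median over the 8 genes was 0.09.

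The sizes depended on the scaling and the background correction. Under the 6 ways of scaling, normexp included, Krt8 ranged from 1.98 to 2.65, Krt18 from 0.97 to 1.72 and Vim from 2.33 to 2.93. The lowest Vim value came from normexp, hence from the background correction. The lowest Krt8 value came from the deposited table, in which each array is divided by its median, and it put Krt8 just under 4-fold. That table moved the median of all genes by -0.19, and scaling to Gapdh moved it by 0.27. Krt19 ranged from 0.09 to 0.68 and stayed above 0.

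**Figure D2:**
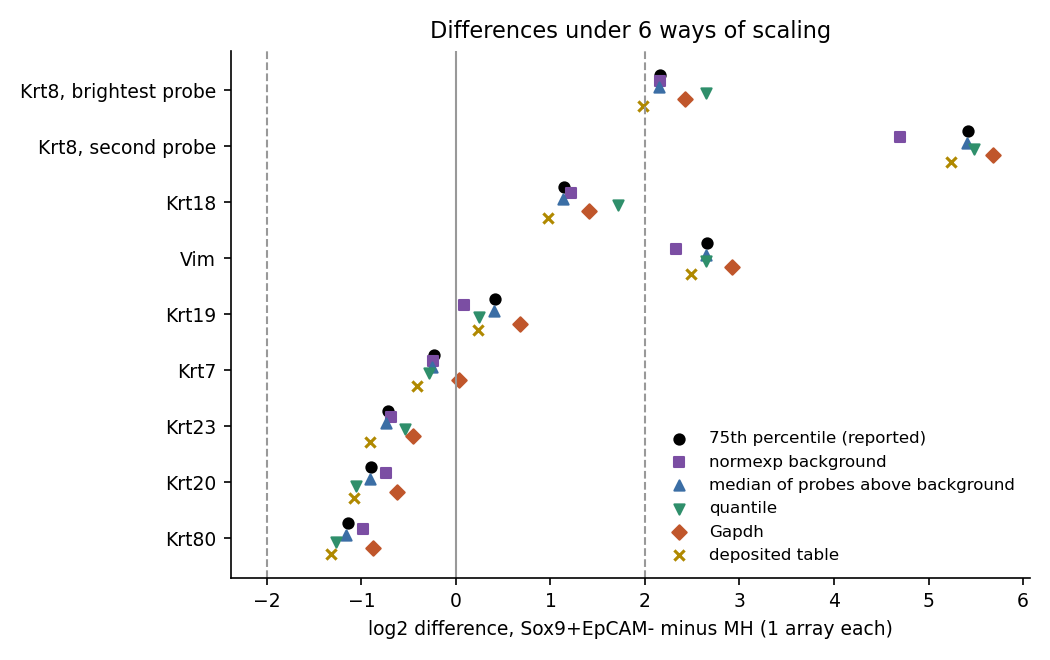
Log2 difference (Sox9+EpCAM- minus MH, 1 array each) of the 9 probes under 6 ways of scaling, 1 symbol each, of which normexp changes the background correction; dashed lines mark 4-fold and the solid line no difference. Krt7 crosses 0 under scaling to Gapdh (0.03), and Krt8 falls below 4-fold with the deposited table (1.98).

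The array names 45 further keratins, most of them of skin and hair. Of these, 35 had a difference, 2 were at least 4-fold higher, 2 at least 4-fold lower, and their median of -0.12 equalled that of all genes to 2 decimals. Krt6a, a keratin of stratified epithelia, read 127 in MHs and 24.5 in Sox9+EpCAM- cells (-2.96). The latter reading was close to the lowest signal well above background of its array (18.4), so the size rests on a dim value. Krt1 read 156 in MHs and was not well above background in Sox9+EpCAM- cells (at least 12.7-fold lower). Among keratins measured on both arrays, Krt36 (-1.37) and Krt26 (-1.01) came after Krt6a. A second Krt36 probe was not well above background in MHs and read 41.8 in Sox9+EpCAM- cells, so the Krt36 difference rests on its brighter probe. Krt17 was not well above background in Sox9+EpCAM- cells and was at least 2.82-fold lower. On the other side, Krt78 was not well above background in MHs and was at least 2.79-fold higher. Krt13 read 1410 and 5830 on its brightest probe (1.46), with a second probe that gave no fold (28.6 and 27.7), and Krt28 read 139 and 416.

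The further keratins past 4-fold on the high side were Krt81 and Krt85, which are among the hair keratins. Krt81 read 4890 in MHs and 31100 in Sox9+EpCAM- cells (2.09), and the brightest Krt85 probe read 8370 and 59900 (2.26). A second Krt85 probe read 111 and 193 (0.22), and its remaining probe was not well above background in MHs. Krt83, a further hair keratin singled out after its values were seen, read 944 and 2810 (0.99). Of the other hair keratins with a difference, Krt31 (0.01), Krt33b (-0.12), Krt86 (-0.22) and Krt40 (-0.35) lay near 0 or below. Krt39 (-0.43), Krt34 (-0.75), Krt32 (-0.80) and Krt36 (-1.37) were lower still, so hair keratins were not higher as a class. Hair keratins form a family of closely similar genes, so the values of Krt81, Krt83 and Krt85 are uncertain as to the gene, and which transcripts their probes bound was not tested.

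Among 14 other intermediate filament genes, 10 had a difference, 2 were at least 4-fold higher and 0 lower, with a median of -0.10. Lmna, which encodes lamins A and C of the nuclear lamina, read 908 in MHs and 10600 in Sox9+EpCAM- cells (2.96). Lmnb1, a B-type lamin, was not well above background in MHs and was at least 4.54-fold higher. The neurofilament gene Nefm read 55.2 and 288 (1.81), and the astrocyte and stellate cell filament gene Gfap read 79.8 and 173 (0.53). At the low end were the neuronal genes Prph (-0.92), Ina (-0.81) and Nefh (-0.58), and the lamin gene Lmnb2 (-0.43). Des, which encodes desmin of muscle and stellate cells, read 190 and 304 (0.09), where Vim differed by 2.66.

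Of 14 genes for linkers and desmosome plaques, which tie keratins to each other and to the cell membrane, 13 had a difference and 0 passed 4-fold in either direction. Their median was 0.17. Eppk1, which encodes the keratin-binding epiplakin, read 47.0 in MHs and 260 in Sox9+EpCAM- cells (1.88). Fam83h, whose product acts on keratin organisation, read 1230 and 5480 (1.57). The cytolinker gene Plec differed by 0.88 and the desmoplakin gene Dsp by 0.70. The plaque genes Jup (-1.48) and Pkp3 (-0.62), the linker gene Dst (-1.40) and the periplakin gene Ppl (-0.42) were at the low end.

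Of 12 genes for proteins of keratin aggregates or their handling, 11 were on the array under the name used, all had a difference, and 2 were at least 4-fold higher. Hspb1, a small heat shock protein, read 109 in MHs and 1510 in Sox9+EpCAM- cells (3.21). Hspa1a, an inducible Hsp70, read 352 and 2740 (2.38). The median of 0.36 was above that of all genes, and the other 9 genes lay within 4-fold. Sqstm1, which encodes the aggregate protein p62, read 35900 and 76900 (0.52), and Tgm2, which cross-links keratins, read 7000 and 13500 (0.36). Hspb8 (0.87) and Vcp (0.74) were also above 0, and Hspa8 (-0.62) and Nbr1 (-0.13) were below.

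**Figure D3:**
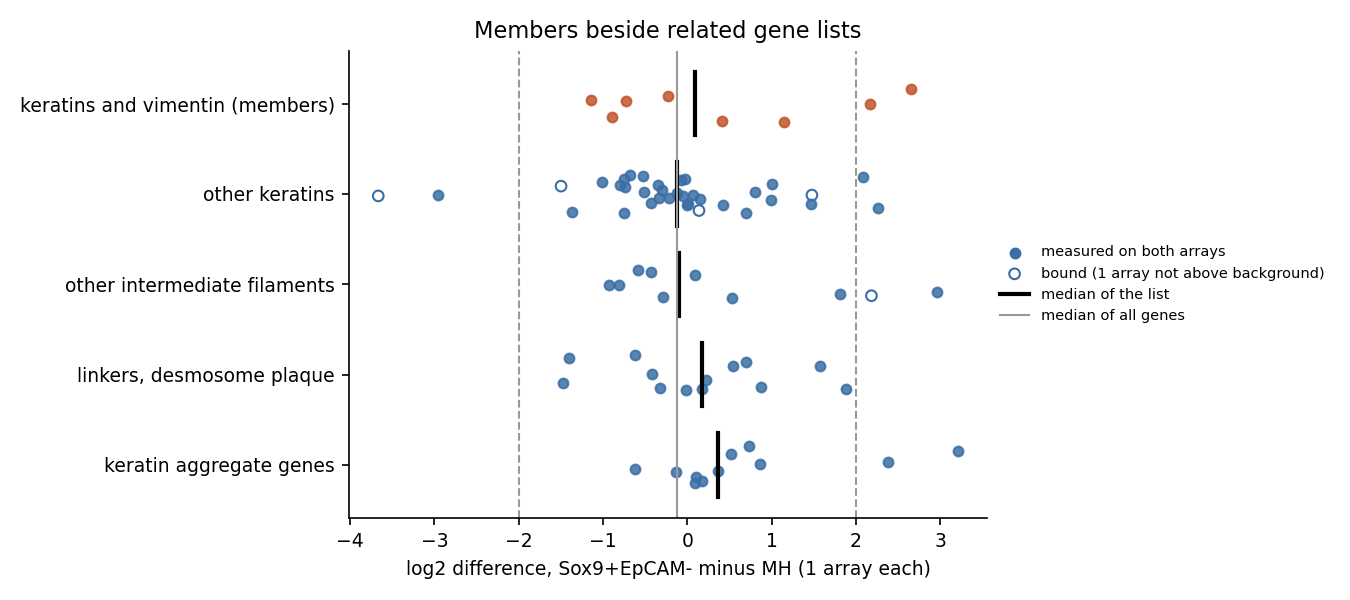
Log2 difference (Sox9+EpCAM- minus MH, 1 array each) of the 8 genes (orange) and of the genes of 4 related lists (blue); open points are bounds, black bars the median of each list, the grey line the median of all genes (-0.12) and dashed lines 4-fold. The list medians lie between -0.12 and 0.36, and points past 4-fold appear on the high side in 4 of the 5 rows.

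The labelled cell type was checked against 6 marker lists. All 8 hepatocyte markers were well above background on both arrays. Alb, which encodes albumin, read 207000 in MHs and 170000 in Sox9+EpCAM- cells (-0.87), and Hnf4a, a hepatocyte transcription factor, read 4990 and 6360 (-0.23). Cyp2e1, a P450 of hepatocytes around the central vein, fell by 5.47 to 1900, and Tat, an enzyme of tyrosine breakdown, fell by 2.46 to 18700. The summed scaled level of the list was 1043 in MHs and 487 in Sox9+EpCAM- cells.

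Markers of other cell types differed as well. Of 10 cholangiocyte markers, 3 were at least 4-fold higher and 0 lower, 8 had a difference above 0 and 2 below. The summed scaled level was 4.20 in MHs and 54.2 in Sox9+EpCAM- cells, and 3.85 and 11.9 without Spp1, the brightest of the list. Spp1, which encodes osteopontin, read 258 and 47000 (6.93). Epcam, whose product was selected against in the sort, read 139 and 2770 (3.73), so its RNA was higher in the sample labelled Sox9+EpCAM-, against what the name of the sort gives. The array measures RNA and the sort surface protein. Sox9, whose reporter was selected for, was not well above background in MHs and read 60.7 in Sox9+EpCAM- cells (at least 1.45-fold higher), and the mucin gene Muc1 was at least 7.18-fold higher. The markers below 0 were Prom1, which read 214 and 140 (-1.20), and Cftr, the chloride channel of bile ducts, which read 69.6 and 52.1. Krt19 (0.42) and Krt7 (-0.23) lay below the median of the cholangiocyte markers (1.10). The part of ductal cells in the Krt8 and Krt18 values was not tested.

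Several mesenchymal markers were higher in the same sample as Vim. Of 12 such markers, 11 had a difference, 5 were at least 4-fold higher and 1 lower, and the summed scaled level was 12.8 in MHs and 50.6 in Sox9+EpCAM- cells (12.6 and 30.5 without Col3a1, the brightest). The collagen genes Col3a1 (175 and 22300, 6.41), Col1a1 (82.6 and 2630, 4.41) and Col1a2 (377 and 8700, 3.95) were higher, and the elastin gene Eln was at least 134-fold higher. Lum, which encodes lumican of fibroblasts, was at least 6.82-fold higher and the receptor gene Pdgfra at least 3.58-fold higher. Thy1 differed by 0.76, Acta2 by 0.42, Dcn by 0.31 and Des by 0.09. Lrat, a gene of stellate cells, was at least 7.70-fold lower, and Pdgfrb was not well above background on either array, so it gives no difference. The part of mesenchymal cells in the Vim value was not tested.

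Vimentin is also known from endothelial cells, leukocytes and mesothelium, and their markers were checked too. The methods for the array name GFP and EpCAM for the sort, and other sorts of the study left out cells with CD31 (Pecam1, endothelial) or CD45 (Ptprc, leukocyte). Pecam1 read 669 in MHs and 594 in Sox9+EpCAM- cells, and Ptprc read 195 and 248. Of 7 endothelial markers with a difference, 4 were at least 4-fold lower (summed scaled level 7.73 in MHs and 2.76 in Sox9+EpCAM- cells). Of 10 leukocyte markers, 5 were at least 4-fold lower and 1, Cd68, was higher (3.85), and the summed scaled level was 33.8 in MHs and 15.8 in Sox9+EpCAM- cells (17.3 and 3.46 without Csf1r, the brightest). Of 6 mesothelial markers, 4 were not well above background on either array, among them the defining Msln and Upk3b, and 1, Wt1, was at least 41.6-fold lower. The summed scaled level was 0.794 and 0.0618, or 0.105 and 0.0576 without Wt1, which is in part signal of the 4 dim probes. The part of these cells in the Vim value was not tested.

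**Figure D4:**
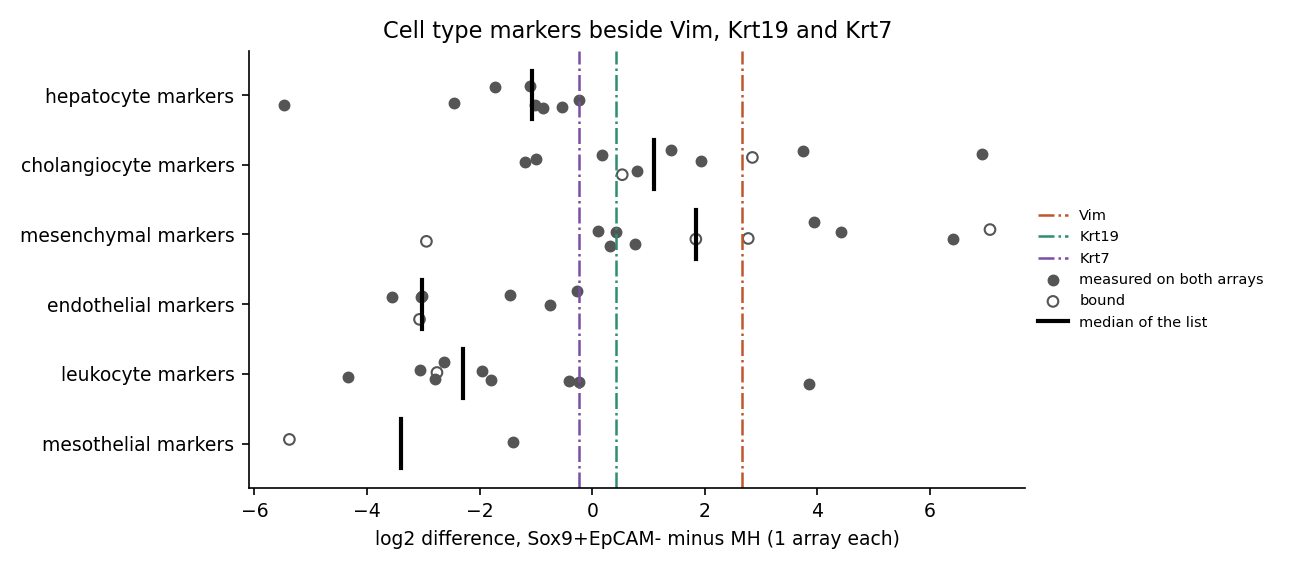
Log2 difference (Sox9+EpCAM- minus MH, 1 array each) of the markers of 6 cell types, with open points for bounds and black bars for the median of each list, and vertical lines at the differences of Vim (2.66), Krt19 (0.42) and Krt7 (-0.23). The cholangiocyte (1.10) and mesenchymal (1.84) medians are the only ones above 0, and the latter is itself a bound, which ranged from 0.71 with normexp to 3.70 with plain differences and so lay on either side of the Vim line.

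The promoters of Krt8, Krt18 and Vim are shown to set the start regions of the neighbouring pair beside that of Vim. These members were at least 2-fold higher with the reported scaling, and Krt18 was just under 2-fold with the deposited table (0.97). The promoter sequences are from RefSeq on GRCm38.p6, a different build from that of the probes. Each holds 250 bases before the annotated start and 20 after it, 5′ to 3′ along the gene. Capitals mark TATAAA, the core of the TATA box, on either strand.
Krt8, chr15:102004323-102004592, minus strand: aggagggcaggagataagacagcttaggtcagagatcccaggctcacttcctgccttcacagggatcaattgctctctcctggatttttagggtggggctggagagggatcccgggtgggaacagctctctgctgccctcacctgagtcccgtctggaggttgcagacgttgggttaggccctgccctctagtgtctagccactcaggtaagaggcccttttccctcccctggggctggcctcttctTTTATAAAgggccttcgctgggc
Krt18, chr15:102027966-102028235, plus strand: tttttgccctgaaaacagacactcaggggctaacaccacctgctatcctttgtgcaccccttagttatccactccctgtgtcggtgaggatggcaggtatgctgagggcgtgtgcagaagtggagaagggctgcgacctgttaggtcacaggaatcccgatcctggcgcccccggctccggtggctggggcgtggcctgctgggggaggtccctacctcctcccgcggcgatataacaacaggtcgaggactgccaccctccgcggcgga
Vim, chr2:13574061-13574330, plus strand: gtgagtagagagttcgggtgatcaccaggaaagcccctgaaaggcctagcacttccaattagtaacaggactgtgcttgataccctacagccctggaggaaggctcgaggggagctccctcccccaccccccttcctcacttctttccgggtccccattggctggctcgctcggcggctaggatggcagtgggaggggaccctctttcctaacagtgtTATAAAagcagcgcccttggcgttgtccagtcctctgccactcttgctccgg
The table of promoters held 6 of the 8 genes, with Krt19 and Krt80 not among them. TATAAA was found on either strand in 3 of the 6 (Krt8, Vim and Krt20) and in 12.9% of all 32851 promoters over the same 270 bases. In Vim it began 32 bases before the start, in Krt20 29 bases before, and in Krt8 overlapping matches on the 2 strands began 1 and 3 bases before. The GC box GGGCGG was found in 1 of the 6, Krt7 with 4 matches, and in 34.1% of all promoters. The AP-1 motif TGANTCA was found in 0 of the 6 and in 7.23% of all. The 3 members shown thus share none of these motifs as a group, since Krt18 had no match to any of the 3 in this window. Only exact matches were counted, so a near match to the TATA box, as in the Krt18 promoter, is not among them. A match describes these letters and is not a binding site.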

How the data were processed

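RNA of 1 MH sample and 1 Sox9+EpCAM- sample was labelled with Cy3 and hybridised to 1-colour Agilent arrays by a service provider. Per the file headers, the deposited spot intensities were written by Feature Extraction 10.7.3.1 with the background subtracted and with no normalization between arrays. A table of ratio values was also deposited, each of which was found to be the intensity divided by the median of its array (SD of the log2 factor 0.0018). Probe coordinates are on mm9.

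Intensities of spots that are not controls were divided by the 75th percentile of their array, and log2 was taken. Spots flagged as not uniform or as population outliers were left out, and spots of a probe were averaged. Each gene was read from the probe whose mean over both arrays was highest. Where 1 array was not well above background, the difference is a bound against the probe's own signal or, if higher, the lowest signal of any probe well above background (27.8 in MHs, 18.4 in Sox9+EpCAM- cells), and a bound that gave no fold was dropped. Of 43020 spots, 27523 and 32158 were well above background. The members and all lists were chosen with earlier results of these data known. The members are named with every probe, as are, of each list, up to 4 genes with the largest and up to 4 with the smallest difference among those measured on both arrays or with a bound of at least 4-fold, and the defining markers. Of the marker lists fewer genes are named, and Krt17, Krt78, Pdgfra and other genes outside this rule were named after their values were seen. Gene names are those of the array, and 19984 of 30153, with all 8 members, are current RefSeq symbols.

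The alternatives were normexp (limma 3.58.1, R 4.3.3, offset 50), 4 other scalings, other rules for probes, flags and bounds, and thresholds of 2-fold and 10-fold. The probe with the largest difference was added as an alternative after the data were seen. Changes of over 1.5-fold from the reported value are given as moved. Python 3.11.15 with pandas 2.3.3 was used. The steps were tested on data simulated from the MH array with 200 of 30167 genes changed, each by more than 4-fold. Of these 200, 65.0% passed the 4-fold rule. The 121 of them that both simulated arrays measured were all found to within 1.5-fold. The noise added was small beside 1.5-fold, so this checks the steps and not the precision of the arrays.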

Additional observations from a re-analysis of the deposited data

How the results depend on the processing

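Among the members, the sign changed under an alternative for Krt7 alone (0.03 with scaling to Gapdh). Scaling to Gapdh also put the medians of other keratins (0.17) and other intermediate filaments (0.17) above 0, the median over probes and the probe with the largest difference put the latter at 0.31, and the deposited table put the median of linker genes at -0.0028. Krt8 was 3.79 with the median of its probes and 5.42 with the probe of the largest difference, and its second probe was 4.70 with normexp. The count of members at least 4-fold higher was 1 with the deposited table (Vim) and 0 with the 10-fold rule, and with the 2-fold rule 1 member (Krt80) was lower. Over all genes, the higher and lower counts were 612 and 660 with normexp, 3319 and 3918 at 2-fold, and 363 and 344 at 10-fold, and the higher count was 758 with only genes above background on both arrays.

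For the related lists, other keratins at least 4-fold higher numbered 1 with the median over probes or the deposited table, and those lower 0 with normexp and 1 with genes above background on both arrays. Other intermediate filaments at least 4-fold higher numbered 1 with normexp, quantile normalization or genes above background on both arrays. Linker genes at least 4-fold higher numbered 1 with Gapdh, the median over probes or the probe with the largest difference. Hepatocyte markers at least 4-fold lower numbered 1 with quantile normalization.

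With normexp the list medians were 0.71 (mesenchymal), -1.67 (endothelial), -1.60 (leukocyte) and -2.17 (mesothelial), and 0 mesenchymal markers were at least 4-fold lower. Without the bound, the mesenchymal median was 3.70 and the mesothelial one -4.39. With genes above background on both arrays, the medians were 0.76 (mesenchymal), -2.24 (endothelial) and -1.40 (mesothelial), with 3 mesenchymal markers higher, 0 lower and 0 mesothelial markers lower. Bounds and dim probes enter these values by construction, and for the others the cause was not tested. The other 399 values were within 1.5-fold of those reported.

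No paired analysis was possible because there is only 1 array in each group. For the same reason the slide was not fitted as a block and no replicate was left out.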
